A study of Homo sapiens with 6 samples.

Results

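Eukaryotic cells move proteins between compartments in small vesicles. Coats such as COPI bend the membrane and pick cargo, tethers such as HOPS, GARP and TRAPP catch the vesicle at its target, and SNARE proteins (the syntaxins and VAMPs) pull the membranes together. Retromer and the sorting nexins return receptors from endosomes, while ESCRT subunits and the VPS4 ATPases bud vesicles into the endosome. These proteins work largely as fixed assemblies, and several subunits come as a choice of related genes.

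The mRNAs described here are those of the vesicle trafficking genes whose symbols start with VPS, SNX, TRAPPC, STX or VAMP and a number, or with COPA, COPB, COPE, COPG or COPZ. The rule took 95 of the 10779 genes listed in the deposited tables. Of these, 80 had a translational efficiency, 85 a profile of ribosome occupancy along the mRNA and 70 had both. VPS72, a subunit of chromatin remodelling complexes, matches by symbol and is described apart.

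Ribosome-protected fragments (RPFs) were sequenced from HEK293 cells, a human embryonic kidney line, with total RNA from the same lysates. There were 3 RPF and 3 total RNA libraries, numbered 1 to 3, and no second condition, so mRNAs are compared with each other and not between treatments. The sample labels give control siRNA for all 6, while the methods name none for this experiment. Cells had received cycloheximide, which arrests elongating ribosomes, at 100 µg/ml. Nothing in the labels says that the replicates were separate cultures, so the tests below measure the spread between these samples, which may be technical.

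Translational efficiency sets the RPFs of a gene against its total RNA and has 1 value per replicate. Occupancy is the number of RPFs at a codon, normalized to library size and to mRNA abundance, with the 3 libraries combined. Each occupancy value of the 85 transcripts was a sum of whole multiples of 3 numbers, the worth of 1 read in each library. All of their 27050 values above 0 gave whole reads in this way, at a relative tolerance of 1e-11. The 85 transcripts held 381558 in-frame reads, of which 378958 lay in the CDS, with 60 reads for STX11 and 28017 for COPB1. The libraries are lettered A, B and C within each transcript, in the order of the worth of a read, smallest first. This order can differ between mRNAs, so 1 letter need not be the same library throughout. In TRAPPC1, for example, B held 2357 CDS reads and A 1778. Reads under A, B and C came to 162042, 129282 and 87634 of the CDS reads, sums that may mix libraries. The libraries could not be tied to the replicate numbers of the translational efficiency. The worth of a read also falls as the TPM of the mRNA rises, which gave a relative mRNA level with a median of 1 over all transcripts. Among markers chosen to check the label, 4 of 5 genes known in HEK293 cells were listed (PAX2 was not). NEFL and NEFM had mRNA levels of 18.89 and 16.35, but ENO2 had 0.105 and LHX1 had 0.0852. Of 7 markers of other cell types only COL1A1 was listed, with 344 reads and an mRNA level of 0.0430. LHX1 had 140 reads, fewer than COL1A1.

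As a set, the trafficking mRNAs sat close to the middle of the table. Their median translational efficiency was 0.413 (quartiles 0.185 and 0.773, n = 80 genes), beside 0.385 over all 8121 genes (quartiles 0.198 and 0.825). Their median CDS occupancy was 0.0506 per codon against 0.0450 over all 9570 transcripts, and their median in-frame depth was 5.48 reads per codon against 3.90. Each gene was tested against the middle of the table (limma on the log2 scale, Benjamini-Hochberg adjustment at an FDR of 0.05). Of the 80 members, 36 were higher, 36 were lower and 8 passed in neither direction. Over all genes 44.7% were called higher and 44.6% lower, so the members' shares of 45% in each direction are those of the table. On the log2 scale the SD between the replicates of a member was 0.0949 at the median, while the SD between members was 1.37.

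**Figure D1:**
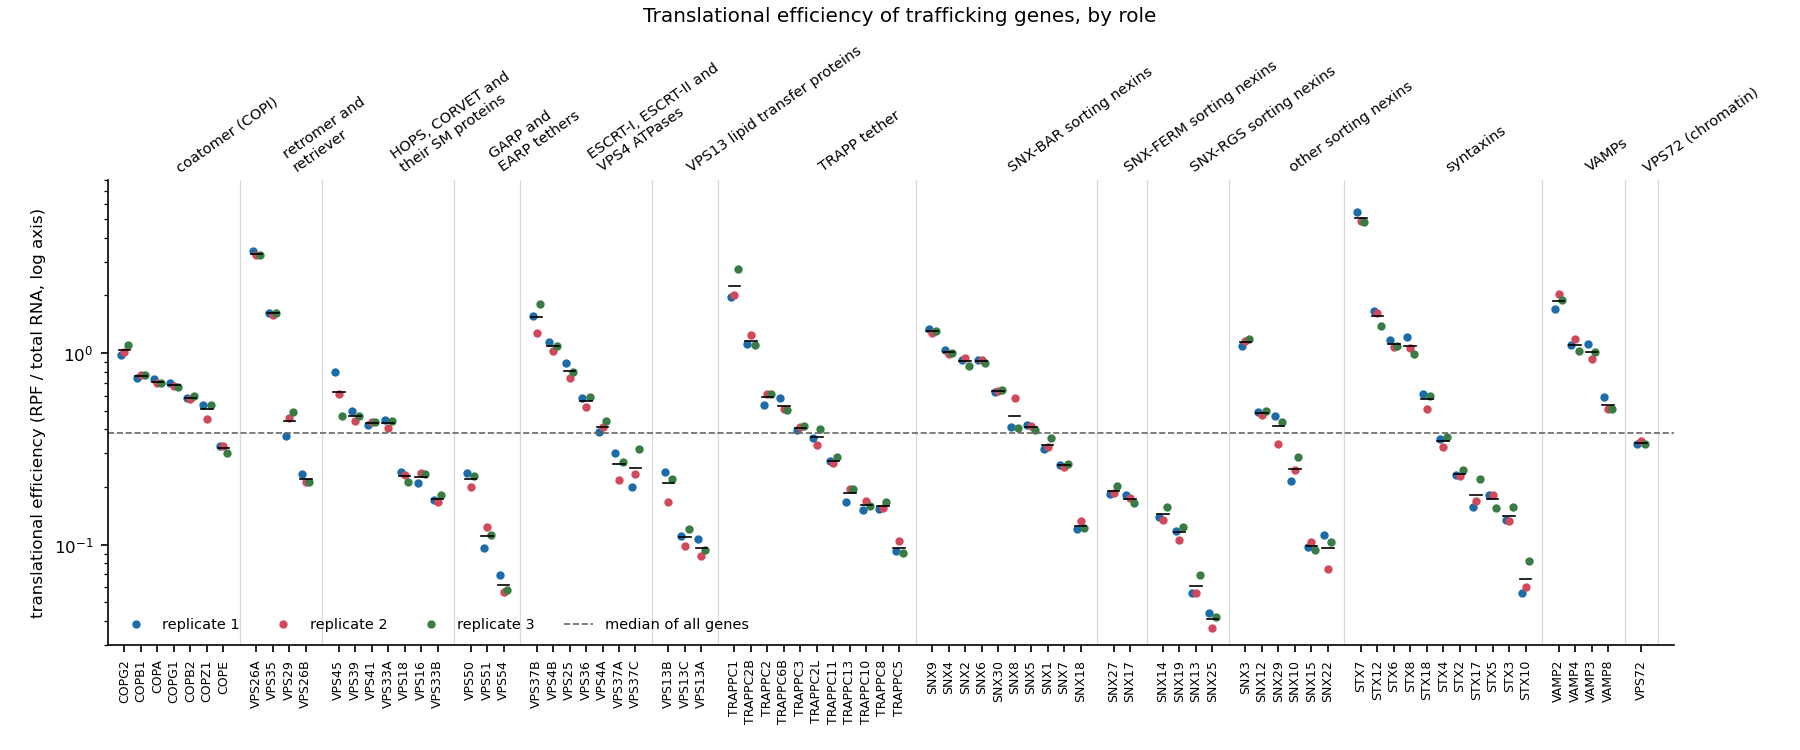
Translational efficiency (RPF over total RNA, log axis) of the 80 trafficking genes with a value, grouped by role. Points are replicates 1 to 3, black bars their mean, and the dashed line the median of all genes (0.385). STX7 is highest at 5.04 and SNX25 lowest at 0.0410.

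The members spanned a range of 123-fold. The highest was STX7, a syntaxin of late endosomes, at 5.42, 4.89 and 4.82 in replicates 1 to 3, a mean of 5.04 ± 0.333 (SD, n = 3). Its lowest replicate lay above the highest of every other member. VPS26A of retromer followed with 3.30 ± 0.107 and TRAPPC1 of the TRAPP core with 2.24 ± 0.434, where replicate 3 (2.73) stood above replicates 1 (1.95) and 2 (2.02). VAMP2, the synaptobrevin of exocytosis, had 1.87 ± 0.162, the retromer scaffold VPS35 had 1.61 ± 0.0272 and the endosomal syntaxin STX12 had 1.55 ± 0.148. All 6 were called higher, with adjusted p between 1.31e-06 and 1.44e-05 (limma). Of the coding 30-mers of VPS35, 21.4% also occur in its pseudogene VPS35P1. For VAMP2 the share was 94.7%, with 1 other annotated gene.

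At the low end stood SNX25 at 0.0439, 0.0370 and 0.0422 in replicates 1 to 3, a mean of 0.0410 ± 0.00361 (SD, n = 3). SNX13, of the same RGS-domain family, had 0.0606 ± 0.00800, and VPS54, a subunit of the GARP tether that receives endosomal vesicles at the trans-Golgi, had 0.0614 ± 0.00729. STX10, a syntaxin of the trans-Golgi, had 0.0662 ± 0.0138. TRAPPC5 (0.0962 ± 0.00724) and the lipid transfer protein VPS13A (0.0962 ± 0.00992) completed the 6 lowest. All 6 were called lower, with adjusted p between 1.81e-06 and 1.45e-05 (limma). All coding 30-mers of TRAPPC5 also occur in 1 other annotated gene. Most neighbours in this order could not be separated: in 69 of the 79 steps from 1 member to the next the replicate values overlapped.

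Roles differed in how their members fell. All 4 VAMPs with a value were higher, as were 6 of 7 coatomer genes. All 4 RGS-domain sorting nexins (median 0.0883), all 3 VPS13 proteins (0.110), all 3 GARP and EARP subunits with a value (0.110) and both FERM-domain sorting nexins (0.182) were lower. The other roles were mixed: 5 of 11 syntaxins were higher and 5 lower, 4 of 11 TRAPP genes were higher and 5 lower, and 5 of 10 BAR-domain sorting nexins were higher and 3 lower. These counts describe small lists, in a table where 44.7% of genes were called higher and 44.6% lower.

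CDS length moved with these values. Of the 26 members over 500 codons with both measures, 16 were lower (61.5%) and 9 higher. The same class over all genes had 53.2% lower. Of the 17 members of up to 200 codons, 11 were higher (64.7%), and over all genes of that length the share was 64.3%. Across the 70 members with both values, Spearman's rho between translational efficiency and CDS length was -0.374 (-0.259 across 6912 genes). These are descriptions across genes measured in the same libraries, and the part of length in the results by role was not tested.

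COPI coats vesicles that run from the Golgi back to the endoplasmic reticulum as a complex with 1 copy of each type of subunit. Of the coatomer genes, 6 were higher than the median and 1 was lower. COPG2, a γ subunit, had 0.979, 1.01 and 1.11 in replicates 1 to 3, a mean of 1.03 ± 0.0670 (SD, n = 3). COPB1 (β) had 0.762 ± 0.0155, COPA (α) 0.711 ± 0.0230 and COPG1 (γ) 0.679 ± 0.0170. COPB2 (β′) had 0.583 ± 0.0111 and COPZ1 (ζ) 0.509 ± 0.0495. COPE (ε) stood apart at 0.320 ± 0.0162 and was the member called lower (log2 difference from the median -0.26, SE 0.05, adjusted p = 0.00716, limma). Its 3 values, 0.329, 0.329 and 0.301, all lay below those of the other coatomer genes.

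The coatomer mRNAs were abundant, and 6 of the 7 had levels between 3.09 (COPA) and 8.85 (COPE) times the median transcript. COPG2 was the exception at 0.308. Its occupancy of 0.310 per codon was higher than that of 97.8% of transcripts, and the CV between the 3 libraries was 15.6%. Ribosomes per mRNA and mRNA level combine in the reads per codon, which count ribosomes engaged on a message in frame. These came to 75.98 for COPZ1, 30.8 for COPE, 29.4 for COPB1, 26.6 for COPB2, 20.1 for COPA, 15.3 for COPG1 and 8.64 for COPG2. COPE and COPB1 therefore had nearly the same depth per codon although their translational efficiencies differed. The γ subunits together gave 23.9 reads per codon, a value between those of COPA and COPB2. COPZ1 stood above the rest, and ARCN1, the δ subunit from a list of related genes, had 55.7. Read totals per codon have no replicate test here, and reads of COPE may be shared, since 31.9% of its coding 30-mers occur in another annotated gene.

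**Figure D2:**
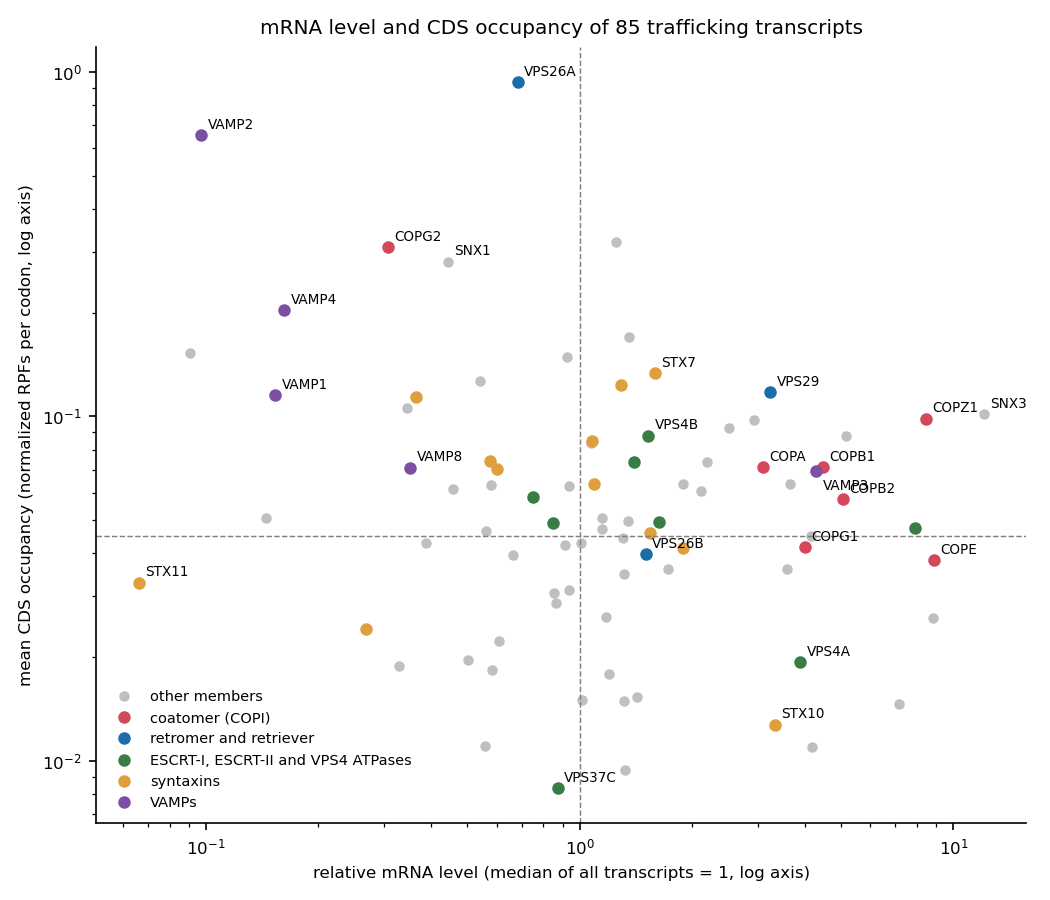
Mean CDS occupancy (normalized RPFs per codon, log axis) against relative mRNA level (log axis) of 85 trafficking transcripts, coloured by role. Dashed lines mark the medians of all transcripts. COPG2, VAMP2, VAMP4 and VPS26A combine an mRNA level below the median with high occupancy, and STX10 and VPS4A the reverse.

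Retromer is a trimer of VPS35, VPS29 and either VPS26A or VPS26B that retrieves receptors from endosomes. Its 4 genes differed by 15.1-fold from the highest to the lowest. VPS26A had 3.43, 3.24 and 3.25 in replicates 1 to 3 (mean 3.30), and VPS26B had 0.233, 0.213 and 0.212 (mean 0.220 ± 0.0119), the lowest of the 4. VPS35 had 1.61, and VPS29 had 0.440 ± 0.0625, which was not called (adjusted p = 0.108, limma). Without replicate 1, VPS29 was called higher (adjusted p = 0.0139). The occupancy of VPS26A, 0.933 per codon with a CV of 4.58% between libraries, exceeded that of 99.6% of all transcripts, and that of VPS26B was 0.0398. Reads per codon were 58.8 for VPS26A, 34.9 for VPS29 and 5.48 for VPS26B, so that VPS26A carried most of the in-frame reads of the 2 alternative subunits (64.3 in all) from an mRNA level of 0.684, beside 1.504 for VPS26B. VPS35 had no profile in the occupancy table. For VPS26A, 12.3% of the coding 30-mers occur in the pseudogenes VPS26AP1 and VPS26BP1.

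ESCRT-I and ESCRT-II sort ubiquitinated cargo, and the VPS4 ATPases take the ESCRT-III polymer apart. Of 7 of these genes with a value, 4 were higher and 2 lower, in a table with 44.7% higher and 44.6% lower. VPS37B of ESCRT-I had 1.56, 1.27 and 1.80 (mean 1.54 ± 0.263), while its alternatives VPS37A (0.264 ± 0.0425) and VPS37C (0.251 ± 0.0593) were both lower than the median. The ESCRT-II subunits VPS25 (0.808 ± 0.0757) and VPS36 (0.565 ± 0.0378) were higher. VPS4B had 1.08 ± 0.0594 and was higher, and VPS4A had 0.413 ± 0.0272 and was not called (adjusted p = 0.148, limma). Of the coding 30-mers of VPS4A, 90.5% occur in another annotated gene.

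TRAPP tethers vesicles at the endoplasmic reticulum and the Golgi, with small core subunits and larger ones that differ between its forms. Of the core subunits, TRAPPC1 (2.24), TRAPPC2 (0.589 ± 0.0436) and TRAPPC6B (0.533 ± 0.0434) were higher, TRAPPC3 (0.409 ± 0.0120) and TRAPPC2L (0.365 ± 0.0370) were not called and TRAPPC5 was lower. TRAPPC2B, a copy of TRAPPC2, had 1.16 ± 0.0826 and was higher, but 65.7% of its coding 30-mers and 71.3% of those of TRAPPC2 occur in other annotated genes, each other and pseudogenes among them, and their reads may not be separable. The larger subunits TRAPPC8 (0.159 ± 0.00718), TRAPPC10 (0.160 ± 0.00897), TRAPPC11 (0.275 ± 0.0101) and TRAPPC13 (0.186 ± 0.0162) were all lower. In reads per codon the core subunits with a profile ran from 1.03 (TRAPPC6A) to 41.4 (TRAPPC3), with 36.6 for TRAPPC1, 14.8 for TRAPPC4, 12.6 for TRAPPC2, 9.53 for TRAPPC5 and 8.12 for TRAPPC6B. The larger ones ran from 1.96 (TRAPPC10) to 5.44 (TRAPPC13). TRAPPC5 thus combined a low translational efficiency with an mRNA level of 7.15, the highest of the TRAPP genes.

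GARP receives endosomal vesicles at the trans-Golgi with VPS51, VPS52, VPS53 and VPS54, and in EARP, the endosomal form, VPS50 replaces VPS54. VPS50 had 0.222 ± 0.0192, VPS51 0.111 ± 0.0137 and VPS54 0.0614, all called lower. The profiles gave the same order for these 3, with an occupancy of 0.0506 for VPS50, 0.0109 for VPS51 and 0.00943 for VPS54. VPS53, which had no translational efficiency, stood above them at 0.126 with a CV of 9.35% between libraries. Reads per codon were closer together, from 4.22 for VPS51 to 6.20 for VPS53 in 4 of the 5 subunits, with VPS54 at 1.13.

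The sorting nexins share a PX domain that binds phosphoinositides, and the BAR-domain group forms the tubules through which receptors leave the endosome. Among the latter, SNX9 (1.30), SNX4 (1.01 ± 0.0243), SNX2 (0.909), SNX6 (0.908 ± 0.0188) and SNX30 (0.634 ± 0.00611) were higher. SNX1 (0.333), SNX7 (0.260 ± 0.00425) and SNX18 (0.125) were lower, and SNX8 and SNX5 were not called. SNX1 lost its call without replicate 1 or 2. The RGS-domain nexins SNX14 (0.144 ± 0.0123), SNX19 (0.116 ± 0.00890), SNX13 and SNX25 were the lowest group. All coding 30-mers of SNX14 also occur in another annotated gene.

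HOPS and CORVET tether endosomes and lysosomes, with VPS11, VPS16, VPS18 and VPS33A as their shared core. VPS39 (0.471 ± 0.0294) and VPS41 (0.433 ± 0.00744), which HOPS alone holds, were called higher, as was the core subunit VPS33A (0.432 ± 0.0225), all by a small margin. For VPS33A, 85.04% of the coding 30-mers occur in other annotated genes. The calls of VPS41 and VPS33A were lost when 1 replicate was left out. The core subunits VPS18 (0.228 ± 0.0141) and VPS16 (0.227 ± 0.0148) were lower, and their values overlapped. VPS45, which acts with endosomal SNAREs, had 0.795, 0.612 and 0.472, a mean of 0.626 ± 0.162.

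Among the SNAREs, the syntaxins ranged from STX7 to STX10. STX6 (1.11 ± 0.0484) and STX8 (1.09 ± 0.118), both of endosomes and the trans-Golgi, were called higher, as was STX18 of the endoplasmic reticulum (0.573 ± 0.0529). STX5, the Golgi syntaxin (0.173 ± 0.0155), STX17 of autophagosomes (0.182 ± 0.0333) and the plasma membrane syntaxins STX3 (0.141 ± 0.0133) and STX2 (0.235 ± 0.00930) were lower. STX4, also of the plasma membrane, had 0.348 ± 0.0212 and was not called (adjusted p = 0.0693, limma). The VAMPs were less spread: VAMP4 had 1.10 ± 0.0770, VAMP3 had 1.02 ± 0.0894 and VAMP8 had 0.539 ± 0.0469. Their mRNA levels were low apart from that of VAMP3 (4.30). VAMP2 had a level of 0.0972, VAMP1 of 0.153 and VAMP4 of 0.162, with an occupancy for VAMP2 of 0.654 per codon, above 99.3% of transcripts. That value rests on 679 reads and its CV between libraries was 15.3%.

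Related genes that can take the same place in a complex or pathway were compared in pairs. Of 30 pairs listed, 20 had both values, and the 3 replicate values of the 2 genes did not overlap in 18 of the 20. Among all possible gene pairs 90.2% did not overlap, so related pairs stood apart about as often as any 2 genes. The exact permutation test of 3 against 3 cannot go below 0.10 (two-sided), the p of each of these 18 pairs. The median difference was 2.45-fold, 14 pairs differed by over 2-fold (64.0% of all gene pairs) and 5 by over 4-fold (35.4%).

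**Figure D3:**
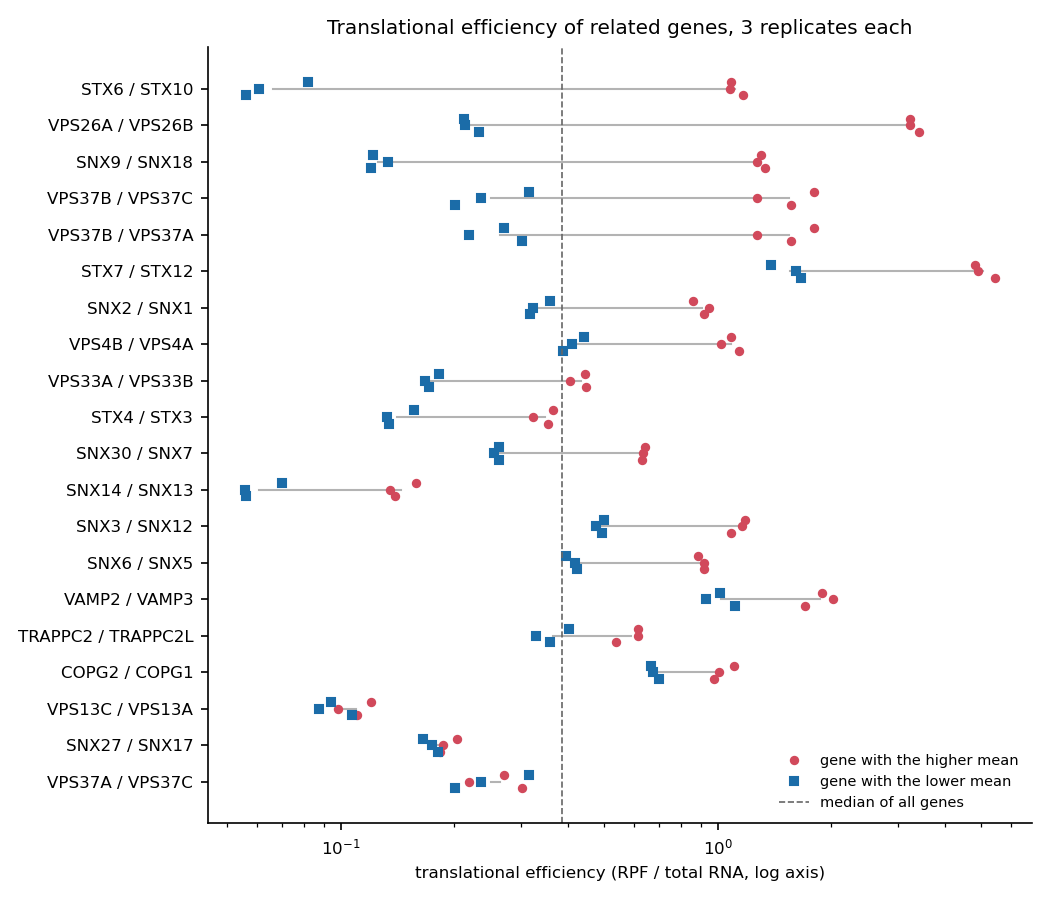
Translational efficiency (log axis) of the genes of 20 related pairs, 3 replicates each. Circles are the gene with the higher mean and squares the gene with the lower mean, the pairs are ordered by their fold difference, and the dashed line is the median of all genes. STX6 and STX10 are farthest apart at 16.98-fold, and VPS37A and VPS37C overlap.

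The 5 pairs over 4-fold apart were STX6 and STX10 (16.98-fold), VPS26A and VPS26B (15.1-fold), SNX9 and SNX18 (10.4-fold), and VPS37B with VPS37C (6.20-fold) and with VPS37A (5.85-fold). The profiles of VPS37A and VPS37B did not show such a gap. Their CDS occupancy was 0.0584 for VPS37A and 0.0490 for VPS37B, and their reads per codon were 3.95 and 3.92. SNX9 and SNX18 are BAR-domain nexins of endocytosis with values of 1.30 ± 0.0293 and 0.125 ± 0.00727. On the log2 scale the difference was 4.09 ± 0.33 (SD, n = 3) for STX6 over STX10, 3.91 ± 0.03 for VPS26A over VPS26B and 3.38 ± 0.11 for SNX9 over SNX18. The 2 pairs that overlapped were VPS37A with VPS37C (log2 difference 0.08 ± 0.44, exact permutation p = 0.8) and VPS13A with VPS13C (-0.19 ± 0.16, exact permutation p = 0.2). SNX17 and SNX27, which recycle receptors from endosomes, differed by 1.10-fold without overlap.

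The remaining pairs lay between these. STX7 exceeded STX12 by 3.25-fold, SNX2 exceeded SNX1 by 2.73-fold, VPS4B exceeded VPS4A by 2.62-fold and VPS33A exceeded VPS33B by 2.49-fold. STX4 over STX3 (2.47-fold), SNX30 over SNX7 (2.44-fold), SNX14 over SNX13 (2.38-fold), SNX3 over SNX12 (2.33-fold) and SNX6 over SNX5 (2.20-fold) were close to each other in size. Under 2-fold were VAMP2 over VAMP3 (1.84-fold), TRAPPC2 over TRAPPC2L (1.62-fold) and COPG2 over COPG1 (1.52-fold). All of these held in each of the 3 replicates. Shared sequence touches several of them, with 95.6% of the coding 30-mers of VPS33B and 41.3% of those of SNX5 found in other annotated genes, beside the shares given for VPS33A, VPS4A, SNX14, VAMP2 and TRAPPC2.

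The bases around the start codon are shown for the pairs that were farthest apart, 15 nt before the ATG to 12 nt after it, in GRCh37, the build of the files, with the start codon in capitals. They were read from GENCODE transcripts matched by symbol and CDS length, and the windows of VPS26A, SNX9 and VPS37C cross a splice junction. The 5′UTR lengths of these transcripts differed from those of the profiles.
VPS26A, chr10:70884019-70892665, plus strand: gcggcggcgttgacaATGagttttcttgga
VPS26B, chr11:134095002-134095031, plus strand: cggcccggcggtgcgATGagcttcttcggc
STX6, chr1:180991795-180991824, minus strand: cggggccgggacgccATGtccatggaggac
STX10, chr19:13260973-13261002, minus strand: ggggaagggactgacATGtctctcgaagac
SNX9, chr6:158244452-158288581, plus strand: ggggacccgcccgccATGgccaccaaggct
SNX18, chr5:53813768-53813797, plus strand: cggggcgccgggaccATGgcgctgcgcgcc
VPS37B, chr12:123380595-123380624, minus strand: ggccgagacgtggggATGgcgggcgccggg
VPS37C, chr11:60906287-60928871, minus strand: ccctggcagggaaggATGgagacgctgaag

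An A or G 3 nt before the ATG and a G just after it (ANNATGG or GNNATGG, on the strand of the mRNA) are known to favour recognition of a start codon. Both genes of each pair shown held a purine at that place. The G after the ATG was present in SNX9, SNX18, VPS37B and VPS37C and in neither gene of the other 2 pairs shown. Within the pairs shown the genes thus did not differ in this feature. VPS37A, whose window is not shown, held a purine before the ATG but an A after it. VPS37B and VPS37A therefore did differ, with the G in VPS37B, the gene with the higher translational efficiency. Of 60 members with a single start context, 23 (38.3%) held both features, beside 43.8% of 7098 transcripts. The median translational efficiency was 0.251 for the 19 of these with a value and 0.440 for the 29 with 1 of the features. Over all transcripts the order was the other way, 0.423 with both and 0.388 with 1.

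Of the 16 pairs with profiles for both genes, the gene with the higher translational efficiency also had the higher CDS occupancy in 13. The share over all gene pairs was not counted. The exceptions among the 16 were SNX1 and SNX2, where SNX2 led in translational efficiency (0.909 ± 0.0445 against 0.333 ± 0.0225) and SNX1 in occupancy (0.281 against 0.170), STX3 and STX4, and VPS37A and VPS37B. Both measures rest on RPFs and total RNA of the same libraries but were normalized separately. Occupancy is divided by the TPM from which the mRNA level is read, so an error in TPM moves these values in opposite directions, and its part in the high occupancy of mRNAs of low level was not tested. For COPG2 over COPG1 the difference was 1.52-fold in translational efficiency and 7.43-fold in occupancy, and for VAMP2 over VAMP3 it was 1.84-fold and 9.44-fold. Other pairs in the same order differed little in occupancy: 1.04-fold for SNX3 over SNX12, 1.08-fold for STX7 over STX12 and 1.19-fold for SNX30 over SNX7. Across the 70 members Spearman's rho between translational efficiency and occupancy was 0.678, and 0.688 across all 6912 shared genes. The pairs also differed in mRNA level: SNX3 had 12.1 times the median transcript and its relative SNX12 2.93, and in reads per codon SNX3, a nexin of the retromer route, led all members with 111.

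The 15 members with a profile only included VPS11 and VPS8 of the tethers at an occupancy of 0.0314 and 0.0223, and VPS28 of ESCRT-I at 0.0738. VPS52 (0.0471), STX16 of the trans-Golgi (0.0702) and TRAPPC4 (0.0736) were near or above the median of all transcripts. VAMP1 (0.116) and SNX16 (0.152) were higher but rest on 196 and 404 reads, with CVs between libraries of 21.8% and 26.6%. STX1A, the syntaxin of synapses, had 0.0242 on 170 reads. The 10 members with a translational efficiency only were VPS35, VPS33A, VPS13C, SNX6, SNX15, SNX25, STX2, STX18, TRAPPC2B and TRAPPC2L.

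In-frame reads in the 5′UTR were few, 2115 reads or 0.554% of those on the member transcripts, and 1.146% over all transcripts. The last 17 codons before the start codon were compared with the CDS, per codon, for the 56 members whose 5′UTR held at least 34 codons. The ratio was at least 0.5 in 4 of the 56 (7.14%), against 10.9% over all transcripts, and 12 of the 56 (21.4%) held no read in those codons, against 29.7%.

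The highest ratio was that of VPS4A, 2.35, 2.41 and 2.52 in libraries A, B and C, or 2.42 ± 0.0849 (SD, n = 3), above 98.7% of transcripts. VPS8, a CORVET subunit, had 1.65 ± 0.309, STX7 had 0.633 ± 0.0991 and STX17 had 0.514 ± 0.196. VAMP4 (0.419 ± 0.108) and the GARP subunit VPS52 (0.3997 ± 0.0444) followed. Reads over the whole 5′UTR, which extends beyond the codons of the ratio, also differed. There were 402 for STX7 and 284 for VPS4A but only 44 for VPS8, 36 for STX17 and 22 for VAMP4.

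The share of these reads in the codon with the most ran from 24.6% in STX7 through 54.5% in VPS8 to 94.4% in VPS4A. The windows of 30 nt show the codon with the most reads in capitals, counted back from the start codon, because 3 of these mRNAs lead the ratio and SNX12 and STX16 have most of their 5′UTR reads in 1 codon (73 of 75 and 75 of 100). The window of STX7 crosses a splice junction.
VPS4A, codon -2, chr16:69345397-69345426, plus strand: gcggacccaggaGATgaaatgacaacgtca
VPS8, codon -10, chr3:184542379-184542408, plus strand: acacttgctttgATGgactgaatactgtta
STX7, codon -18, chr6:132824706-132834153, minus strand: aggtccaggtgaCTGcttagaaaactgcac
SNX12, codon -1, chrX:70288142-70288171, minus strand: ctctccttcggaAAGatgtcggacacggca
STX16, codon -22, chr20:57226985-57227014, plus strand: ccacgagaaagaAAGtgaataaatcaggaa

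In VPS4A, codon -2 held 268 of the 284 reads, 110, 95 and 63 in libraries A, B and C, while the start codon held 3, 5 and 3. The capitals overlap an ATG at nt -5, out of frame with the CDS, which opens a frame of 3 codons (atgaaatga) whose stop overlaps the start codon. Without the 5 codons next to the start, the ratio of VPS4A was 0.0168. In VPS8 the codon with the most reads, 24 of 44, was an in-frame ATG 30 nt upstream, and the frame it opens has 3 codons (atggactga) and closes before the CDS. In STX7 the reads were spread over several codons with peaks of 99 reads at codon -18 (56, 40 and 3 in libraries A, B and C) and of 74 at codon -9. Codon -18 lies just upstream of the codons compared with the CDS, so its reads are not part of the ratio of STX7. STX7 also has an ATG at nt -28, out of frame, which opens 19 codons that end inside the CDS. The profiles hold only reads in frame with the CDS. Whether the reads of VPS4A and STX7 belong to these out-of-frame stretches was not tested. An ATG in the 30 nt before the start was present in 5 of 60 members (8.33%) and in 9.27% of all transcripts. For each mRNA with a 5′UTR window shown, the 5′UTR length in GENCODE differed from that of the profile. It was 162 nt beside 39 codons for VPS4A, 168 nt beside 80 codons for STX7 and 166 nt beside 44 codons for SNX12. The sequence shown may therefore not be the one the reads were aligned to.

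**Figure D4:**
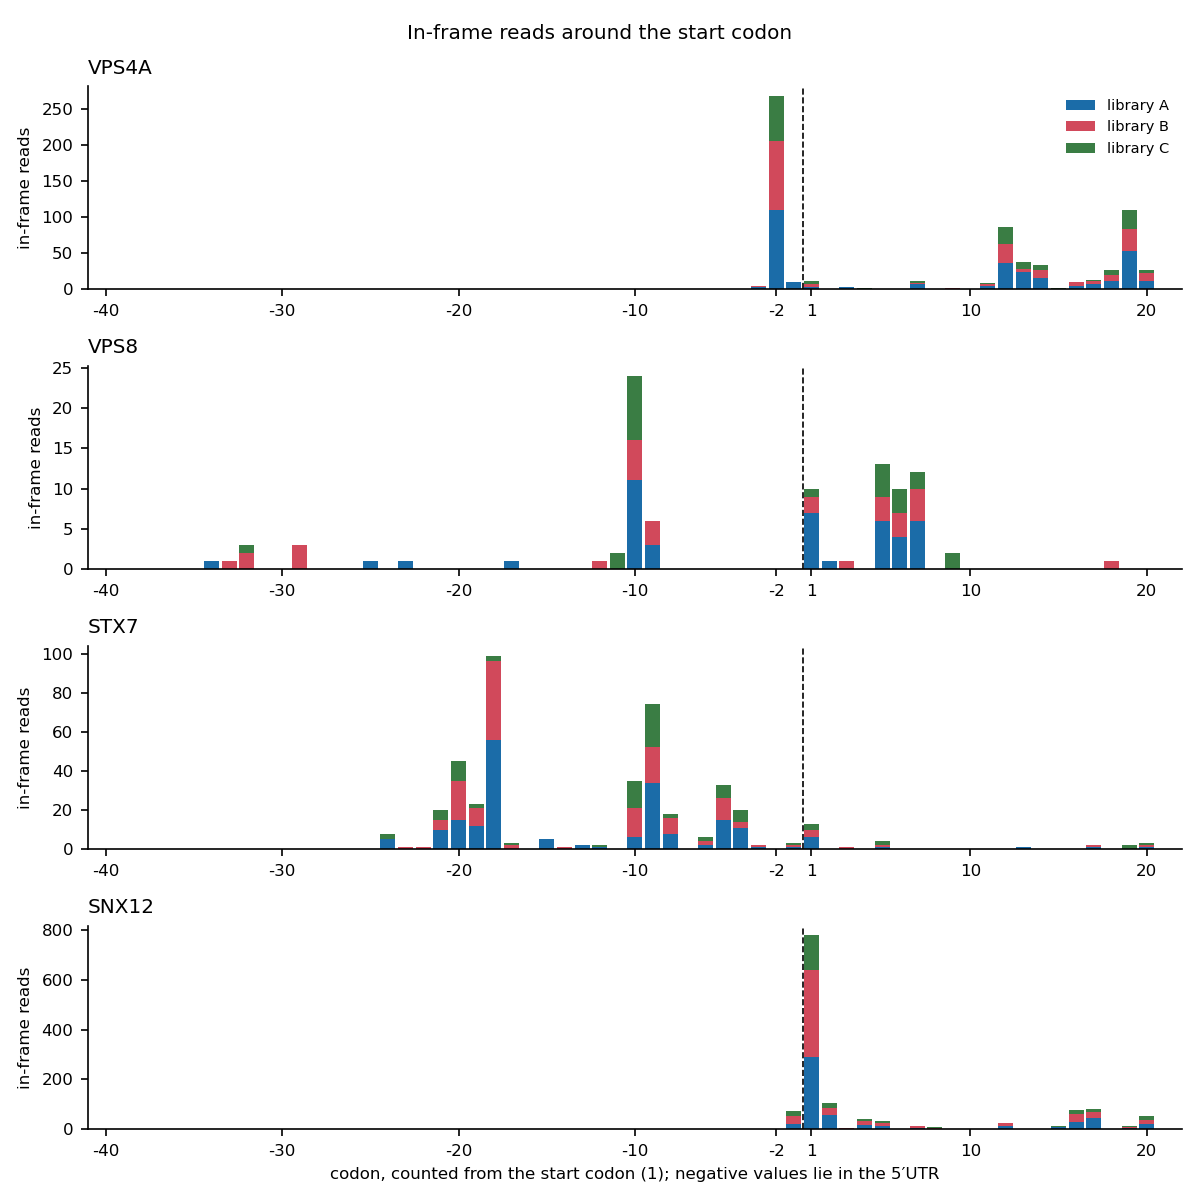
In-frame reads at each codon around the start codon (dashed line) of VPS4A, VPS8, STX7 and SNX12, stacked by library. Codons before the start are negative. VPS4A has 268 reads at codon -2, VPS8 24 at codon -10 and STX7 99 at codon -18, while SNX12 has 779 at the start codon itself.

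Ribosomes were not evenly spread along the CDS. In the 77 members of at least 150 codons, the occupancy of the first 75 codons was compared with that of the last 75, the stop codon left out. The median ratio was 1.06, beside 0.974 over all transcripts. It was under 0.5 in 14 members (18.2%, against 23.2% over all transcripts) and over 2 in 17 (22.1%, against 19.6%).

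Sorting nexins made up 9 of the 14 members under 0.5, out of 22 measured, and 2 of the 17 over 2. Of the other 55 members, 5 were under 0.5 and 15 over 2. In the BAR-domain group, whose C-terminal BAR domain senses membrane curvature, 7 of 9 were under 0.5. Among the other nexins the counts were 1 of 2 (FERM-domain), 0 of 3 (RGS-domain) and 1 of 8 (the rest). SNX30 had 0.179, 0.190 and 0.0968 in libraries A, B and C, or 0.155 ± 0.0510 (SD, n = 3). SNX1 had 0.189 ± 0.0292, SNX8 0.353 ± 0.129 and SNX4 0.349 ± 0.0229, while SNX27, a FERM-domain nexin, had 0.312 ± 0.0479. VPS13A, the other member among the 6 lowest, had 0.342 ± 0.0628, and 1 codon of its last 75 (codon 3084) held 5.46% of its CDS occupancy. With windows of 50 codons SNX27 had 0.612, no longer under 0.5, while SNX30 had 0.0305 and SNX4 had 0.0711. Since the difference between sorting nexins, mainly the BAR-domain group, and other members was seen in the data, it is given with no test.

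At the other end, VPS37C had 52, 10 and 15 in libraries A, B and C, on only 241 reads in the CDS. VPS13B had 12.7 ± 3.62. Its profiled transcript, of 864 codons, had no match in GENCODE, where the longest CDS of the gene has 12069 nt. The part of this short form in the ratio was not tested. VPS37B (6.19 ± 1.94), SNX29 (6.02 ± 1.43), STX1A (7.27 ± 4.24, on 170 reads) and TRAPPC10 (5.06 ± 1.75) followed. The 2 groups did not overlap: the highest library value among the 6 lowest members was 0.5 (SNX8) and the lowest among the 6 highest was 3.78 (TRAPPC10). The rule chose them for this ratio, so the gap is no test.

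**Figure D5:**
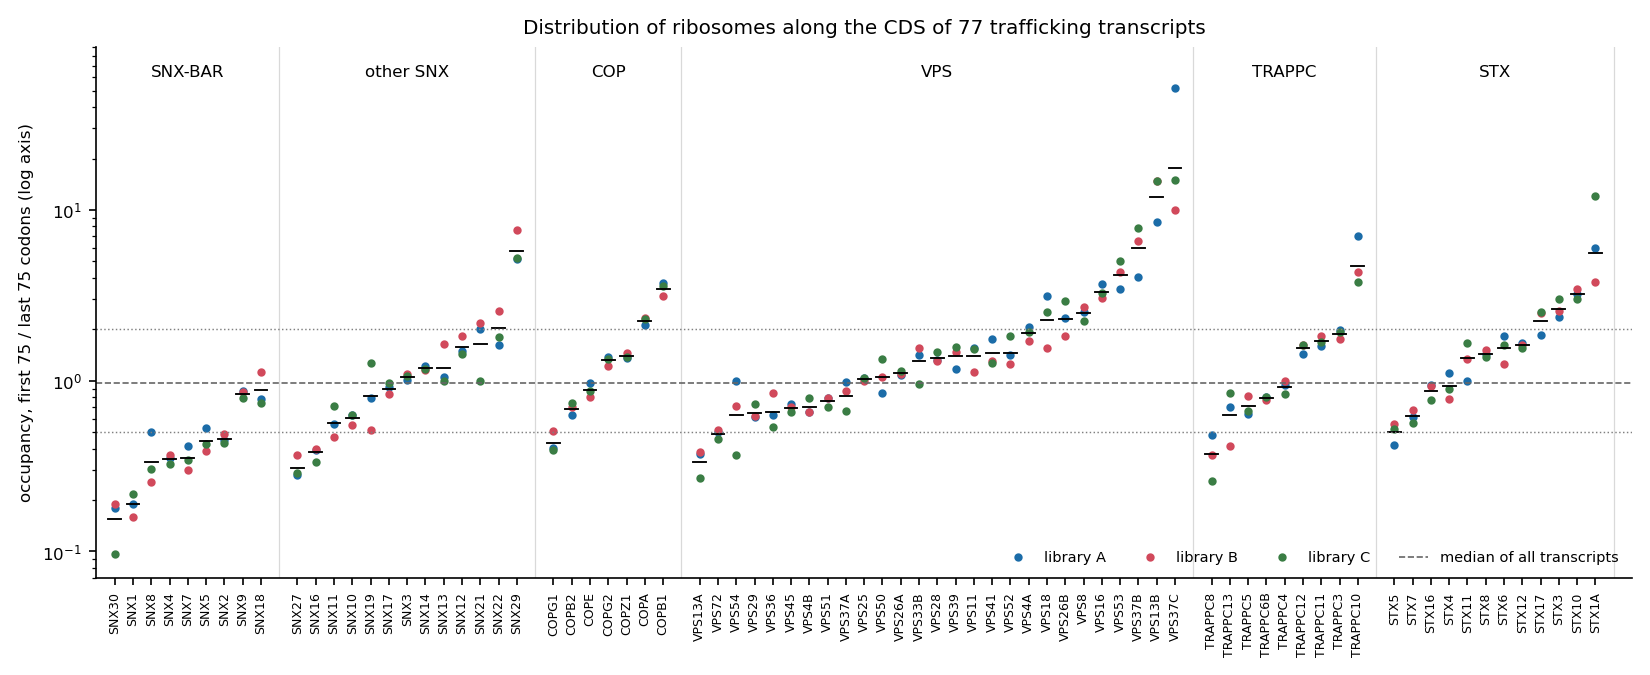
Ratio of occupancy in the first 75 to the last 75 codons (log axis) for 77 trafficking transcripts, by family. Points are libraries A, B and C, lettered within each transcript, and bars the combined value. The dashed line is the median of all transcripts (0.974) and dotted lines are 0.5 and 2. Of 9 BAR-domain sorting nexins, 7 lie under 0.5, and VPS37C and VPS13B are highest.

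A single codon held at least 10% of the CDS occupancy in 12 of 85 members (14.1%), against 13.6% of all transcripts of at least 100 codons. VAMP1 had the largest share, 21.5% ± 4.96 (SD, n = 3 libraries) at codon 63, from 14, 21 and 7 reads. TRAPPC6A had a share of 19% ± 2.14 at codon 5, on 117 CDS reads in all, and SNX12 had 17.9% ± 3.74 at its start codon, from 289, 349 and 141 reads. VAMP2 had 14.6% ± 4.03 at codon 90, VAMP8 14.4% ± 9.40 at codon 45 and TRAPPC1 13.5% ± 2.24 at codon 14, from 200, 316 and 190 reads. In VAMP8 the 3 reads of library C, beside 22 and 11, leave the share poorly determined. Depth differed widely, with 5343 CDS reads for TRAPPC1 and 4290 for SNX12 but 679 for VAMP2, 228 for VAMP8 and 196 for VAMP1.

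The codons of VAMP2, TRAPPC1 and TRAPPC6A are shown in capitals with 12 nt before and 15 nt after, and the window of VAMP2 crosses a splice junction.
VAMP2, codon 90, chr17:8064840-8064952, minus strand: cgcaaatactggTGGaaaaacctcaagatg
TRAPPC1, codon 14, chr17:7835091-7835120, minus strand: gaccggaatggaGTGtgtctgcactacagc
TRAPPC6A, codon 5, chr19:45681447-45681476, minus strand: atggcggatactGTGttgtttgagtttctt

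Beyond the stop codon there were 485 in-frame reads in all, 0.127% of the member reads. The 3′UTR to CDS ratio per codon was at least 0.01 in 3 of 85 (3.53%), against 6.87% over all transcripts. STX11, a syntaxin of blood cells with the lowest mRNA level of the set (0.0661), had 0.0601 ± 0.0279 (SD, n = 3) on 19 reads, and SNX22 had 0.0458 ± 0.0223 on 25 reads. VPS72 had 0.0444, 0.0401 and 0.0504 in libraries A, B and C, on 180 reads, the most reads of the 3. Its profiled transcript has a CDS of 200 codons and no match in GENCODE, where the longest CDS of the gene has 1128 nt. Whether these reads belong to a longer coding sequence was not tested. SNX11 (0.00436 ± 0.00164), SNX27 (0.00353 ± 0.000919) and SNX21 (0.00356 ± 0.00616, 2 reads in 1 library) followed well below these values. VPS72 itself had a translational efficiency of 0.340 ± 0.00816 and was called lower (adjusted p = 0.0224, limma), a call that was lost when any 1 replicate was left out.

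Other genes of the pathway were read against the same background of 44.7% higher and 44.6% lower over all genes. Of 113 with a value, 56 were higher, 42 were lower and 15 were neither (limma), with a median of 0.423. Of 23 genes of the COPI and COPII coats and their Arf GTPases, 15 were higher and 6 lower, with ARCN1 at 1.19 ± 0.0379 and the KDEL receptor KDELR2 at 1.90 ± 0.0743. Of 21 ESCRT genes 11 were higher and 5 lower, with CHMP4B, a subunit of the ESCRT-III filament, at 4.53 ± 0.201. Of 24 clathrin and adaptor genes 9 were higher and 14 lower. Of 24 other tethers 12 were higher and 8 lower. The other SNAREs and their regulators divided into 9 higher and 9 lower of 21, from the Golgi SNARE GOSR2 (0.0754 ± 0.00358) to SEC22B of the endoplasmic reticulum (15.5 ± 0.815), which stood above every member. The CDS occupancy of SEC22B was 0.102 per codon, below that of STX7 (0.1335). Shared sequence was not measured for these other genes.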

How the data were processed

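The authors trimmed RPF reads with Cutadapt (1.16 in the submitters' processing notes), removed PCR duplicates with cd-hit-dup, aligned to the hg19 transcriptome with Bowtie (1.1.2) and assigned 28 to 30 nt fragments to codons 13 nt from their end. For total RNA the methods name Hisat2 and the processing notes TopHat2 (2.1.1), and reads were counted with HTSeq (0.9.1). The most abundant transcript of each gene was kept. The deposited translational efficiency is a ratio (RPF over total RNA, linear) for 8121 genes, with the formula not given in the sources used here. Occupancy values as deposited are library-normalized RPF counts divided by TPM, per codon and in frame, combined over libraries. Whether they were summed or averaged is not given.

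CDS lists broken over lines were rejoined, with a value damaged at the break set to missing. Reads were recovered for 9538 of 9570 transcripts (99.952% of their 2795230 values above 0 were whole), in all 67230556 reads with a median of 1820 per CDS. The worth of 1 read in each of the 3 libraries was sought per transcript, a search tested on simulated data. Intervals are SDs over 3 replicates or libraries. No interval for counting error is given, and library A, B or C is not assigned to a replicate. The letters were set within each transcript, so values by letter over several transcripts may mix libraries.

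Translational efficiency was tested with limma 3.58.1 (R 4.3.3) on log2(value + 0.01), centred on the table's median. P-values were adjusted over all genes (Benjamini-Hochberg, FDR 0.05), and low values were not filtered. Fold changes on this scale understate the change of low genes. The test was checked on simulated data. RPF and total RNA libraries of a number come from 1 lysate, and each ratio already uses that pairing. Python 3.11.15, numpy 2.4.6, pandas 2.3.3, scipy 1.17.1 and matplotlib 3.10.9 were used. Sequences came from GENCODE 44 lifted to GRCh37, matched for 76 of 85 transcripts, and shared sequence was measured on coding 30-mers.

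The members, gene lists and related pairs were chosen with earlier results of these data known. Named by rule were the coatomer and retromer genes, both genes of each pair with values, the 6 highest and 6 lowest in translational efficiency and in first-to-last ratio, and the 6 highest in 5′UTR ratio, 3′UTR ratio and single-codon share. Other members are named to complete their role, after their values were seen. Alternatives covered the pseudocount, a filter on low values, a replicate block, single replicates left out, shared genes and the codon windows.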

Additional observations from a re-analysis of the deposited data

How the results depend on the processing

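The counts of members called higher and lower (36 and 36) kept within 1.5 times their value under every alternative. These included the replicate number as a block (36 and 36), single replicates left out (34 to 36 higher and 34 to 35 lower) and genes of both tables only (31 and 33). Counting only members that share under 10% of coding 30-mers with other genes, an alternative chosen after seeing the data, gave 27 and 26. Its calls came from the same fit, so the fall counts members left out and is no test of shared reads. Of 549 comparisons of single members, 536 were unchanged, 10 lost their call and 3 gained 1, with no direction reversed and none of the losses under the block. VPS41, VPS72, SNX1 and VPS33A lost it when replicates were left out. The number of related pairs without overlap was 18 to 19 without single replicates.

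The median CDS occupancy of members moved from 0.0506 to 0.0518 without the first 15 and last 5 codons and to 0.0487 without the highest codon. Both shifts exceeded the SD of 0.000329 between the medians by letter A, B and C, which may mix libraries. The median 5′UTR to CDS ratio moved from 0.0379 to 0.00608 without the 5 codons next to the start, so it rests on those codons. By letter the median ratio ranged from 0.00425 (B) to 0.0420 (C). The median ratio of first to last codons moved from 1.06 to 0.972 with windows of 50 codons. STX1A had no read in its last 50 and was left out there. Depth limits the ratios of STX11, SNX22, VPS37C, STX1A and VPS8, which rest on few reads.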
